A study of Mus musculus with 6 samples.

Results

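The mRNAs of Cnot3KO fetal hepatocytes were followed on 3 of the 6 arrays of the series, those hybridised with RNA taken at 0, 6 and 12 h of actinomycin D (ActD), and were chosen by the titles of the samples. The hepatocytes came from embryos at E16.5 that carry Cre recombinase under the Albumin promoter, which deletes Cnot3 in the hepatic lineage, and they were cultured with oncostatin M and dexamethasone. Control hepatocytes, labelled as wild type, were prepared and treated alike and fill the other 3 arrays. According to the study, Cnot3 was only partly lost from the liver at this stage and became scarcer during culture. It describes Cnot3 as efficiently suppressed in the differentiated cells that were profiled. There was 1 array for each genotype and time, so no value has a replicate, and precision is limited by how few arrays there are. The course addresses which mRNAs still decline, and when, in cells with Cnot3 deleted.

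Cnot3 is a non-catalytic subunit of the Cnot complex, the main cytoplasmic deadenylase. Shortening of the poly(A) tail by its catalytic subunits is usually the first and slowest step of mRNA decay, and adaptor proteins bring the complex to particular transcripts. ActD intercalates into DNA and stops RNA polymerases, so that after its addition an mRNA can in principle only be lost.

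The values are array intensities, which are relative to the other mRNAs on the same array, so a decline common to the whole mRNA pool would not show and an mRNA lost more slowly than the others appears to increase. In bulk RNA, fewer cells of a type and less RNA per cell cannot be told apart. Each gene was represented by its brightest probe set that names it alone, and 16270 of 18193 genes exceeded the 20th percentile of intensity on at least 1 of the 3 Cnot3KO arrays. The medians of these arrays lay between 69.7 and 70.6 and their 20th percentiles between 19.7 and 20.2. Changes are given on the log2 scale. The change at a single probe set had an SD of 0.24 (log2) from 0 to 6 h, 0.18 from 6 to 12 h and 0.27 from 0 to 12 h. Each is the SD of the difference between 2 probe sets of a gene, divided by the square root of 2, over 4647 genes. Only the 2 brightest probe sets above the median of each Cnot3KO array were used, so genes that fell below it are left out. These SDs describe how far probe sets of a gene disagree and hold nothing of the spread between cultures. A gene is counted below as fallen or risen if it was over 2-fold lower or higher at 12 h than at 0 h, which is a count without a test. The Gapdh probe set, which also lists pseudogenes of Gapdh, read 23562, 22588 and 24092.

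Cnot3 itself had intensities of 174, 174 and 146 at 0, 6 and 12 h in Cnot3KO cells, and of 296, 214 and 158 in control cells. A further probe set gave 155, 161 and 178 in Cnot3KO and 160, 211 and 232 in control cells. The brighter probe set was thus lower in Cnot3KO cells at each time, and the dimmer one hardly differed at 0 h. The position of the probe sets relative to the deleted exons is not given in the sources used here, so neither checks the labels. The defining hepatocyte markers were bright on all 3 arrays: Albumin (Alb) read 34185, 33652 and 34977, and all 10 hepatocyte markers measured exceeded the array median at 0 h.

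By 12 h of ActD 723 genes had fallen in Cnot3KO hepatocytes, 4.44% of the 16270, and 515 had risen, 3.17%. Beyond 4-fold there were 85 genes lower and 36 higher. On the control arrays 2482 (15.3%) and 715 (4.39%) of these genes passed the same limits. Over all genes the Cnot3KO change had a median of 0.076 and an SD of 0.55. The lower limit lies in a dense region, with 137 genes less than 0.1 inside it and 167 less than 0.1 outside. Of the 723 fallen genes 332 were over 2-fold lower at 6 h, and more genes passed this limit in the first phase than in the second. At 6 h 441 genes were already over 2-fold lower (2.71%) and 124 higher (0.762%), whereas from 6 to 12 h 76 were over 2-fold lower (0.467%) and 84 higher (0.516%). The control arrays had 9.11% of these genes lower and 1.12% higher at 6 h, and 2.96% lower and 0.338% higher from 6 to 12 h. Of the fallen genes, 402 had another probe set above the array median, which was lower at 12 h for 373 and over 2-fold lower for 200. Of the risen genes, 112 had such a probe set, higher for 111 and over 2-fold higher for 57.

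**Figure D1:**
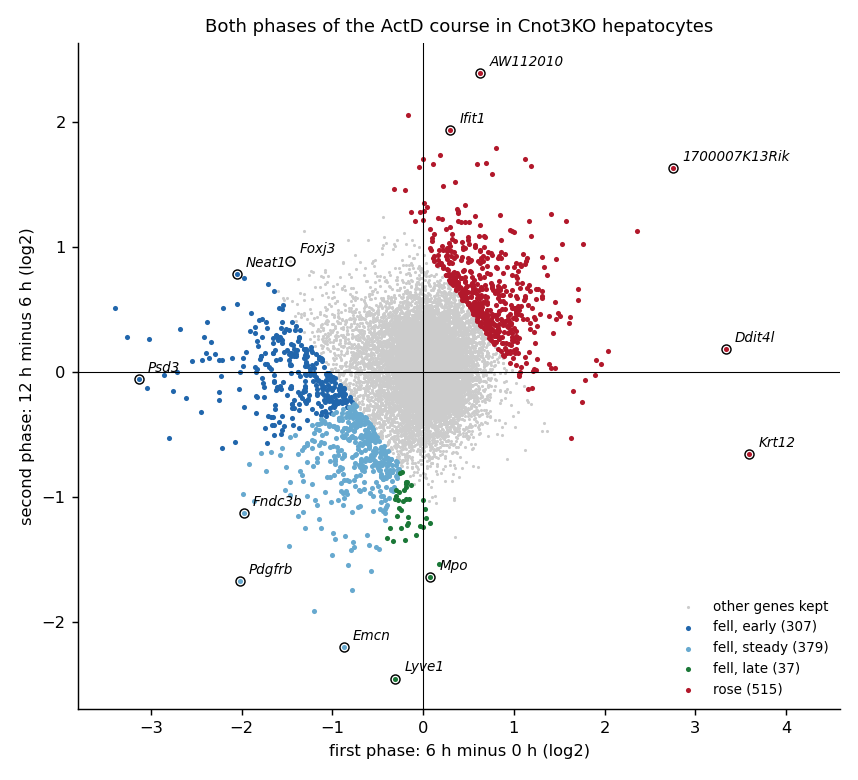
Change from 0 to 6 h (horizontal axis, log2) and from 6 to 12 h (vertical axis, log2) in Cnot3KO hepatocytes, with 1 point for each of the 16270 genes. Blue and green points are the 723 fallen genes by phase, red points the 515 risen genes, and circles mark genes named in the text. The fallen genes had a median change of -0.95 from 0 to 6 h and of -0.42 from 6 to 12 h.

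The fall was tested as the slope over hours in a linear model of all 6 arrays with limma, in which the spread is the departure from a straight line and not the spread between cultures. In Cnot3KO cells 30 genes had a lower and 30 a higher slope after adjustment over 16499 genes (0.182% each, lowest adjusted p = 0.0452), and 1361 and 1537 at an unadjusted p under 0.05. For the control slope limma called 14.5% lower and 7.68% higher. With 2 residual degrees of freedom this test mainly finds large and even changes, and the smallest change called was 1.68 over 12 h. All 60 calls were lost when genes had to exceed the 50th percentile, where limma called 0, with 2498 at an unadjusted p under 0.05 and a lowest adjusted p of 0.0508. For the slope difference between Cnot3KO and control cells, limma called 0 genes, with 2924 at an unadjusted p under 0.05 and a lowest adjusted p of 0.179. No difference in decay between the genotypes can therefore be named for a gene here, and control values are given beside the Cnot3KO values for orientation.

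Of the 723 fallen genes 512 were above the array median at 0 h and lower at 6 h, with every other probe set lower at 12 h. The 15 largest falls among these include receptors, adhesion proteins and adaptors and lay between -2.76 and -3.69. Pdgfrb, the beta receptor of platelet-derived growth factor and a marker of stellate cells, read 321, 79.0 and 24.8 at 0, 6 and 12 h, a change of -3.69 ± 0.21 (SE from limma, adjusted p = 0.0452). Fndc3b, a membrane protein with fibronectin type III domains, was among the brightest mRNAs that fell, from 6067 over 1540 to 704, or -3.11 ± 0.29 (limma, adjusted p = 0.0452). Tenm3, a teneurin adhesion protein, read 1113, 398 and 152, a change of -2.88 ± 0.20 (limma, adjusted p = 0.0452), where the control arrays changed by -0.90. These 3 mRNAs were lower at each later time, in near-even steps for Pdgfrb and Tenm3, while Fndc3b had 63.7% of its fall by 6 h. Another probe set gave -0.84 for Pdgfrb, -2.94 for Fndc3b and -3.31 for Tenm3.

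Psd3, an exchange factor for Arf GTPases, read 1206, 138 and 132, so that nearly all of the 9.10-fold fall lay before 6 h. Nckap5 read 131, 15.9 and 14.5, and Nr3c2, the mineralocorticoid receptor, 407, 56.3 and 55.3. Both were low by 6 h too, but Nckap5 was then below the 20th percentile, where a further decline could not show. Cdh11, an adhesion cadherin of mesenchymal cells, read 105, 45.6 and 12.1, the last also below the 20th percentile. Wdfy3, an adaptor of selective autophagy, fell from 800 over 202 to 103, and its slope passed the test (limma, adjusted p = 0.0452). Emcn, Kcne3, Gimap4, LOC102631979, Zfp407, Tanc1 and Lyve1 complete the 15. At 12 h Emcn (19.3) and Gimap4 (17.7) lay below the 20th percentile of 20.2, and Kcne3 (20.9) and Lyve1 (22.1) just above it. The control change of these 15 genes lay between -0.90 and -4.61. Other probe sets changed less for several of these genes, by -0.16, -0.16 and -0.17 for Psd3, Zfp407 and Tanc1, by -1.01 to -0.15 for Wdfy3, by -0.51 for Cdh11 and by -0.96 for Gimap4.

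The fallen genes shared a feature that played no part in choosing them, the length of their locus in the RefSeq annotation of GRCm38.p6, introns included. The 720 fallen genes with a known locus had a median length of 135 kb, and 482 of them (66.9%) exceeded 100 kb, against 20.8 kb and 12.2% for all genes kept. The risen genes had a median of 7.97 kb, and 3 of 513 exceeded 100 kb. Fallen genes thus came from loci several times longer than usual and risen genes from shorter ones. The 85 genes that fell over 4-fold had a median of 228 kb.

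By class of length, 0.683% of the genes of up to 10 kb fell, 0.687% of those of 10 to 30 kb, 3.99% of 30 to 100 kb, 24.3% of 100 to 300 kb and 25.3% of over 300 kb. The share that rose went the other way, from 6.25% of the shortest to 0.191% of 100 to 300 kb, and no gene of over 300 kb rose. The control arrays also had the fewest fallen genes among short loci (4.42%), but their share was already 25.8% at 30 to 100 kb, then 32.2% at 100 to 300 kb and 20.1% at over 300 kb. Over all genes of over 100 kb it was 29.8%, against 24.5% in Cnot3KO cells. How these shares differ between the genotypes was not tested.

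**Figure D2:**
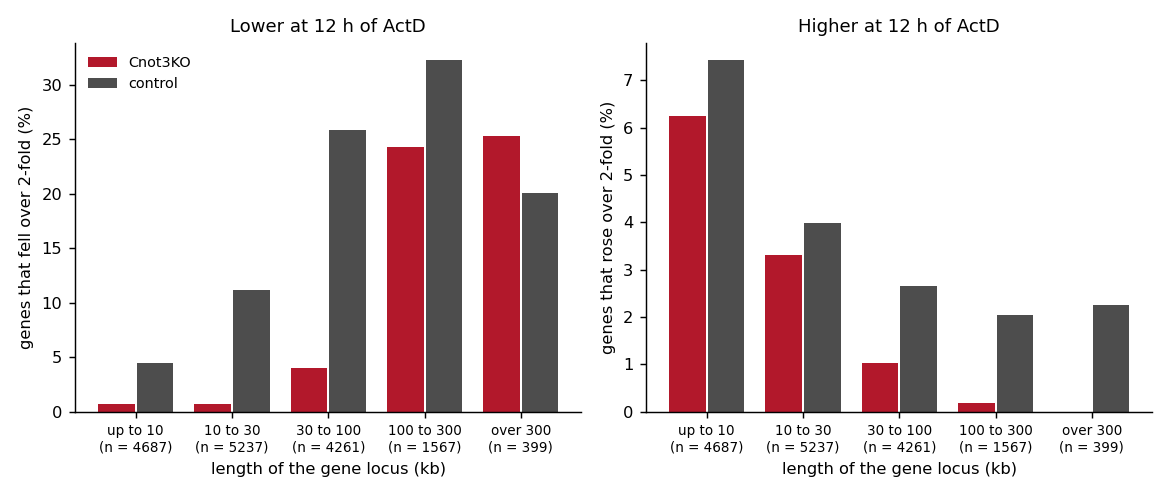
Percent of genes over 2-fold lower (left) and over 2-fold higher (right) at 12 h than at 0 h of ActD, by length of the gene locus in kb, with the number of genes in brackets. Red bars are Cnot3KO and grey bars control hepatocytes, 1 array per time each; in Cnot3KO cells the fallen share stays below 4% up to 100 kb and is over 24% beyond.

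The length of a locus is linked to how bright its mRNA is, so the shares were also taken within 5 equal classes of the 0 h intensity. In the brightest class (999 to 34185) 44.7% of 253 genes of over 100 kb fell and 0.803% of 2117 genes of up to 30 kb. In the middle class the shares were 31.1% and 1.09%, and in the dimmest 1.18% and 0.141%. The contrast was present in each class and smallest where the arrays could show the least. Across the 16151 genes Spearman's rho between locus length and the 12 h change was -0.46, as a description of genes that share the same arrays. Of the 30 genes whose slope passed as lower with limma, 27 exceeded 100 kb (median 275 kb), the others being Pdgfrb, Gimap4 and Adgrf5, and of the 30 that passed as higher 1 did, Celf4. Long genes that passed, here named after their values were seen, include Robo1, a receptor of axon guidance (673, 274 and 116), Prkca, protein kinase C alpha (595, 179 and 104), Insr, the insulin receptor (625, 257 and 156), Utrn, the dystrophin relative utrophin (1089, 639 and 249), and Hipk2, a nuclear kinase (2805, 1463 and 720). Insr has a locus of 129 kb and Robo1 of 1020 kb. Probe sets of such genes often disagreed: with the mean of all probe sets of a gene in place of the brightest, 14.1% of genes of over 100 kb fell in place of 24.5%, and 0.551% of those of up to 30 kb. The other probe sets changed by -0.38 to 1.02 for Robo1, by -0.29 to -0.10 for Insr, by -1.13 to 0.17 for Utrn, by -1.55 to -0.14 for Prkca and by -1.87 to -0.20 for Hipk2.

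The time at which an mRNA was lost divided the fallen genes. With the share of the 12 h fall that was reached at 6 h as the measure, a constant decay rate gives 50%. Among the 723 fallen genes the median share was 68.6%. Of them 307 (42.5%) reached at least 75% by 6 h and are called early, 37 (5.12%) reached at most 25% and are called late, and 379 (52.4%) lay between and are called steady. The 515 risen genes were more evenly spread, with a median share of 55.2%, 77 early and 63 late.

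The 8 leading early falls had little or no further decline after 6 h. Tcf7l2, the Wnt effector that binds beta-catenin, read 506, 78.8 and 99.9, with other probe sets between -3.04 and -0.78 at 12 h. Pdgfra, the alpha receptor of platelet-derived growth factor, read 108, 18.5 and 19.7, both later values below the 20th percentile, and its other probe sets changed by only -0.27 and -0.22. Osgin1, an oxidative stress response gene, read 3773, 705 and 858, and was also early, though it is named as a member of the Nrf2 list. All 3 were slightly lower at 6 h than at 12 h. The remaining leading early genes were LOC102631979, Psd3, Nckap5, Nr3c2, Kcne3 and Zfp407.

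The late falls include mRNAs of endothelial and blood cells. Lyve1, the hyaluronan receptor of liver sinusoidal and lymphatic endothelium, read 149, 120 and 22.1, so that -2.45 of its change of -2.76 came after 6 h. F13a1, a coagulation factor subunit made by macrophages and megakaryocytes, read 1575, 1222 and 515, and Tubb1, the tubulin of platelets, 295, 249 and 105. Mpo, the myeloperoxidase of granulocyte precursors, read 1000, 1057 and 339. Lyve1, F13a1, Tubb1 and Mpo declined mainly after 6 h, but not all markers of these cells were late falls. Emcn, of endothelium, had 28.5% of its fall by 6 h and counts as steady. Of 20 blood cell markers 11 were below 0 at 12 h and 9 above, and 1 had fallen. The other leading late genes were Nts, the peptide neurotensin (85.5, 67.8 and 26.5), Fam172a (241, 209 and 82.6), Cdkal1, an enzyme of tRNA modification (195, 172 and 73.8), Rsrc1 (111, 98.7 and 42.8) and Dscc1, of sister chromatid cohesion (115, 112 and 47.6). Fam172a, Cdkal1 and Rsrc1 have loci of 458, 664 and 377 kb.

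**Figure D3:**
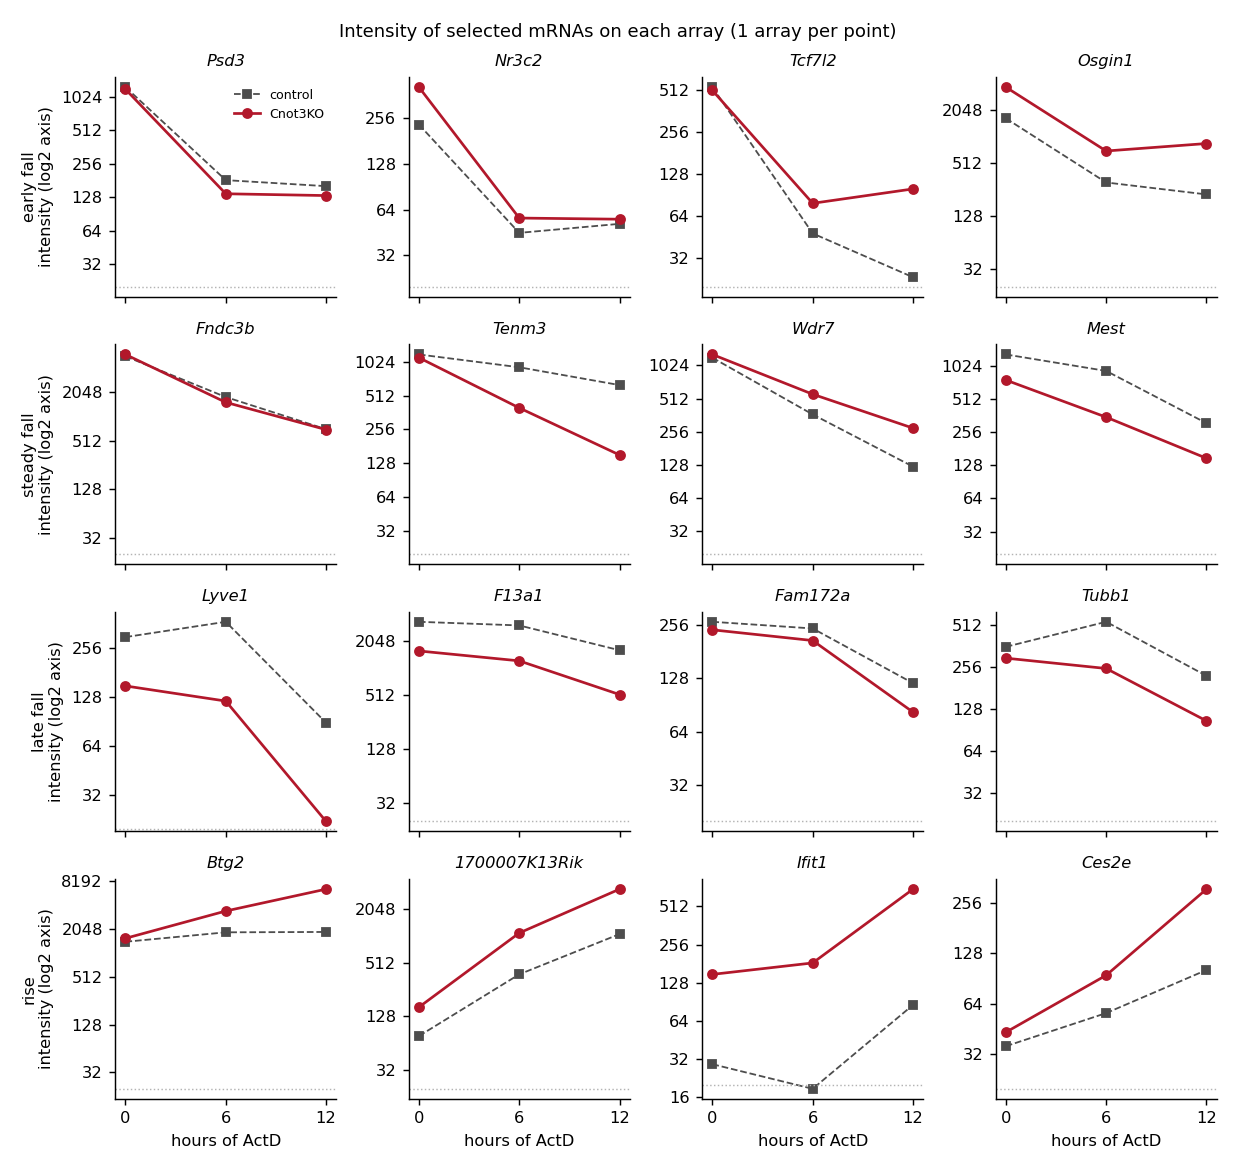
Intensity (log2 axis) at 0, 6 and 12 h of ActD for 16 mRNAs, arranged as early falls, steady falls, late falls and rises. Each point is 1 array, red for Cnot3KO and grey for control, and the dotted line is the mean 20th percentile of the Cnot3KO arrays; Psd3 is at 138 by 6 h and 132 at 12 h, while Lyve1 is at 120 and then 22.1.

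A smaller set of mRNAs dropped by 6 h and then rose again, though the leading ones stayed below their 0 h level. The single 6 h array enters both differences with opposite sign, so an error in it would give this shape. Above the array median at 0 h, 191 genes were lower at 6 h and then over 1.5-fold higher from 6 to 12 h, and 27 of these had been over 2-fold lower at 6 h. In the second phase 3.75% of all genes were over 1.5-fold higher and 2.83% lower, and in the first 3.74% and 7.61%. Neat1, the nuclear noncoding RNA that builds paraspeckles, read 3423, 826 and 1420, but a dimmer probe set of Neat1 changed by 0.31 at 12 h. Foxj3, a forkhead factor, read 1324, 480 and 890. Arid4a and Arid4b, related subunits of a histone deacetylase complex, read 260, 79.5 and 130, and 469, 120 and 201. On the control arrays Arid4a, Arid4b and Foxj3 changed by -3.14, -3.84 and -3.09 at 12 h. Jmjd1c, a member of the histone demethylase family, read 1414, 452 and 706, while another of its probe sets changed by 0.26. The mirror pattern, a rise by 6 h and a loss of over 1.5-fold after it, was seen in 98 genes, led by the keratin Krt12 (20.2, 244 and 155) and the histone variant gene H3f3b (104, 228 and 147).

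Among the rises, 1700007K13Rik read 163, 1096 and 3383, a change of 4.38 ± 0.38 (SE from limma, adjusted p = 0.0452), the largest of the course. Ddit4l, an inhibitor of mTOR signalling, read 261, 2637 and 2994, reaching its level by 6 h. Zfp365 read 20.7, 106 and 232, and started close to the 20th percentile (limma, adjusted p = 0.0452). AW112010, an interferon-responsive transcript, read 164, 255 and 1333. The carboxylesterase genes Ces2e and Ces2b read 43.3, 94.4 and 308, and 32.9, 57.2 and 198, and Cox6b2, a subunit form of cytochrome oxidase known from testis, 163, 433 and 1037. Nr4a1, an orphan nuclear receptor of the immediate early class, read 133, 369 and 689, a change of 2.37 ± 0.24 (limma, adjusted p = 0.0452). In all 15 leading rises the control arrays changed in the same direction, by 0.89 to 3.89. The rule that chose them asked that other probe sets share the sign, which 4 of the 15 genes had.

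Target genes of p53, which arrest the cell cycle and prepare apoptosis, were higher as a group. Of 28 kept, 10 rose (35.7%, against 3.17% of all genes) and 0 fell at 12 h. Their median change was 0.83 (0.076 over all genes), and 24 were above 0. The median was 0.44 in the first phase and 0.31 in the second. Pmaip1, the BH3-only protein Noxa, read 1207, 3721 and 5049. Btg2, an antiproliferative protein that itself binds the Cnot complex, read 1555, 3430 and 6465, a change of 2.06 ± 0.22 (limma, adjusted p = 0.0452), and its other probe set gave 2.07. Plk2, a polo-like kinase, read 1745, 4125 and 6185, and Fas, the death receptor, 198, 490 and 739. These mRNAs were higher at each later time. Another probe set of Plk2 gave 0.52. The control arrays changed by 1.87, 0.41, 0.31 and 0.89 for Pmaip1, Btg2, Plk2 and Fas. With limma 1 of the 28 slopes passed as higher, that of Btg2, and 18 were higher at an unadjusted p under 0.05.

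For interferon-stimulated genes most of the rise came after 6 h. Their median change over 47 genes was 0.07 from 0 to 6 h and 0.54 from 6 to 12 h, with 22 of 47 over 1.5-fold higher in the second phase and 1 in the first. By 12 h 13 had risen (27.7%, against 3.17% of all genes) and 1 had fallen (2.13%, against 4.44%). Ifit1, a protein that binds foreign RNA ends, read 149, 184 and 701, and Iigp1, an immunity-related GTPase, 112, 112 and 363. Gbp2, a guanylate-binding protein, read 188, 268 and 617. Tap1, a peptide transporter of class I antigen presentation, reached 53.9% of its rise by 6 h, with 278, 597 and 1148, and had the slope that passed (limma, adjusted p = 0.0452), but its other probe sets changed by 0.04 to 0.33. Irf7, a factor that drives interferon genes, read 150, 212 and 398. The immunoproteasome subunits Psmb8 and Psmb9 read 445, 605 and 947, and 311, 428 and 723. Irf7, Psmb8 and Psmb9 had 35.5%, 40.6% and 37.7% of their rise by 6 h. The gene that fell was Irf2, named here after its values were seen, which read 192, 72.9 and 79.6. Irf2 counters interferon-driven transcription.

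Many promoters of this group hold the interferon-stimulated response element, bound by Irf and Stat factors, and a simple form of it is shown because the members moved together. The letters GAAANNGAAA were searched on both strands in the 250 bases before each start site of the RefSeq promoters (GRCm38.p6). They occurred for 13 of the 35 interferon-stimulated genes with a promoter (37.1%), for 6 of the 12 that rose (50%) and for 7 of the other 23 (30.4%), against 404 of 12911 genes kept (3.13%). A gene with several matches, overlapping ones included, was counted once. A match is a description of the letters only. The stretches around the match nearest to the start, with the match in capitals, written 5′ to 3′ along the gene, are these for 4 of the 6 risen genes, of which Igtp and Irgm1 are named for this match:
Ifit1, chr19:34640794-34640823, plus strand: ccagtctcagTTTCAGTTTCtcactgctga
Gbp2, chr3:142620594-142620623, plus strand: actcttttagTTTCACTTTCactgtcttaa
Irgm1, chr11:48871425-48871454, minus strand: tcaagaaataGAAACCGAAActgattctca
Igtp, chr11:58199512-58199541, plus strand: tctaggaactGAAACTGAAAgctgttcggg
The immunity-related GTPases Igtp and Irgm1 read 585, 728 and 1524, and 632, 804 and 1659, with 22.8% and 24.9% of the rise by 6 h.

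Immediate early genes, transcription factors that respond to stimuli without new protein synthesis, had a median of 0.03 in the first phase and 0.26 in the second. Of 29, 6 had risen by 12 h (20.7%, against 3.17% of all genes) and 0 had fallen. Fos read 1123, 3020 and 3746, Egr1 1300, 1343 and 3352, and Ier5l 76.1, 161 and 264. Egr1 was level until 6 h, while most of the rise of Fos came before. Among chaperones, which fold proteins under heat stress, Hspa1a read 667, 1029 and 2018 and was the only one of 18 to rise.

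**Figure D4:**
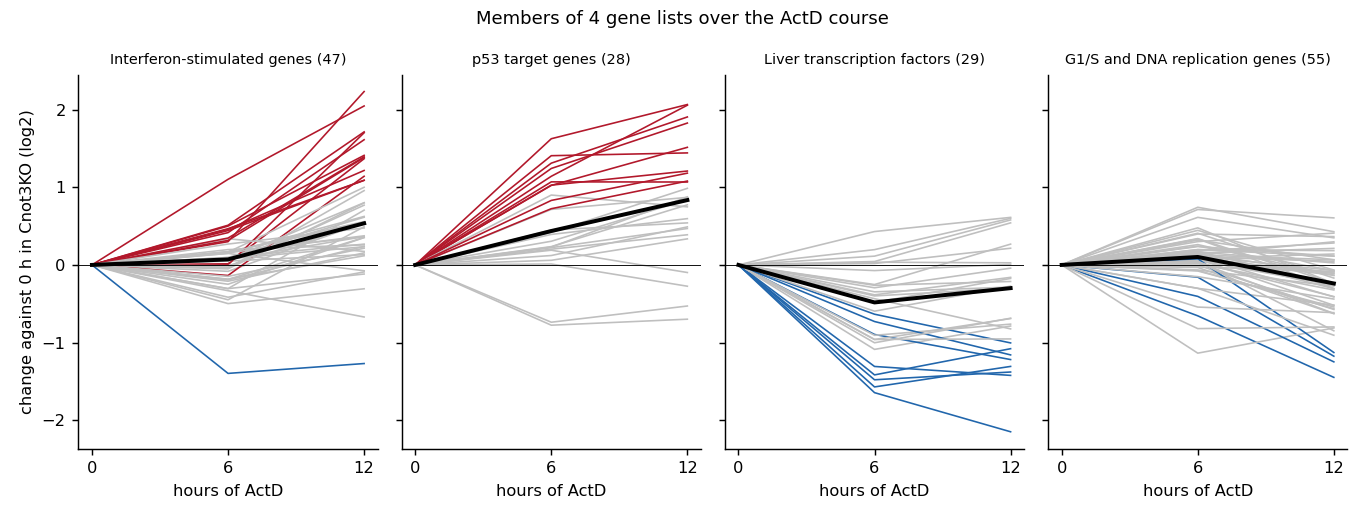
Change against 0 h (log2) at 6 and 12 h of ActD in Cnot3KO hepatocytes for every kept member of 4 gene lists, with 1 line per gene and the number of genes in brackets. Red lines end over 2-fold higher, blue lines over 2-fold lower, grey lines in between, and the black line is the median, which bends upwards after 6 h for interferon-stimulated genes (0.07, then 0.54) and downwards for G1/S genes (0.10, then -0.24).

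Of 29 liver transcription factors 8 (27.6%) had fallen and 0 had risen, against 4.44% and 3.17% of all genes, with a median of -0.48 from 0 to 6 h and 0.18 from 6 to 12 h. Zbtb20, a zinc finger repressor of the fetal marker Afp, read 425, 136 and 96.1, Nr5a2, a nuclear receptor of bile acid metabolism, 530, 214 and 198, Ppargc1a, a coactivator of fasting metabolism, 418, 150 and 161, and Foxo1, a forkhead factor under insulin control, 703, 237 and 284. The last 3 were close to their 12 h level at 6 h, while Zbtb20 declined further. Their loci measure 759, 118, 662 and 81.8 kb. The other probe sets of Nr5a2 and Foxo1 disagreed and reached 0.26 and 0.0074, while those of Zbtb20 and Ppargc1a were all below -1. Hnf4a, the central nuclear receptor of hepatocytes, read 8232, 5304 and 4106 and lay just past the limit. BMP-Smad and Id genes had the same shape, with medians of -0.51 and 0.23. Of 22 such genes 3 had fallen (13.6%) and 1 had risen (4.55%). Smad6, an inhibitor of BMP signalling, read 248, 83.7 and 107, and the ligand Bmp4 rose from 200 over 310 to 700. For the fallen receptor genes Bmpr1a and Bmpr2 other probe sets reached 0.40 and 0.15. Clock genes had medians of -0.51 and 0.13. Arntl, the positive factor of the clock, read 496, 138 and 121, but another probe set of Arntl changed by -0.24, and Tef, a clock output factor, rose from 526 over 770 to 1102. Klf12 read 316, 68.2 and 44.9, with other probe sets from -3.58 to 0.12.

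Of 30 genes of the endoplasmic reticulum stress and Atf4 list 5 had fallen (16.7%, against 4.44% of all genes) and 0 had risen. The median was -0.29. Atf4, the factor of the integrated stress response, was bright and read 7659, 2810 and 2359, although 1 dimmer probe set of Atf4 gave 0.03. Its targets Chac1, which degrades glutathione, and Trib3, a pseudokinase, read 741, 156 and 133, and 2066, 968 and 830, and the membrane sensor Atf6 478, 225 and 152. Of 17 Nrf2 and antioxidant genes 2 had fallen (11.8%), Osgin1 and Gclc. Gclc, the rate-limiting enzyme of glutathione synthesis, read 14925, 7936 and 7154. Most of these losses also lay before 6 h.

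Most mRNAs of the decay machinery stayed within 2-fold, as did most genes. In each list of this machinery the fallen share exceeded that of all genes. Of 11 measured Cnot subunits 2 had fallen (18.2%, against 4.44% of all genes). These were the catalytic subunit Cnot6l (1230, 584 and 578) and the ubiquitin ligase Cnot4 (826, 350 and 401). The others lay between -0.34 and 0.47. The median of the 11 subunits was -0.15 in Cnot3KO cells, and -1.04 on the control arrays. The catalytic subunits Cnot7 and Cnot8 read 1198, 1179 and 1328, and 797, 688 and 782. Of 33 other deadenylation, decapping and exonuclease factors 2 had fallen (6.06%, against 4.44% of all genes) and 0 had risen. These were Pan3, the partner of the Pan2 deadenylase (376, 179 and 171), and Ttc37, of the cytoplasmic exosome (271, 149 and 126). Another probe set of Ttc37 changed by -0.04. Of 29 recruiters and poly(A)-binding proteins 4 had fallen (13.8%) and 2 had risen (6.90%, against 3.17% of all genes). The fallen ones include Samd4, the mammalian Smaug (263, 95.3 and 48.2), Msi2, a Musashi protein (473, 278 and 106), and Bicc1, which brings the Cnot complex to its targets (3636, 2246 and 1072). The slopes of Samd4, Msi2 and Btg2 passed with limma (adjusted p = 0.0452), while other probe sets changed by -1.18 to -0.22 for Samd4 and by -2.65 to 0.19 for Msi2. The control arrays changed by -2.60, -0.13, -0.70 and 0.41 for Samd4, Msi2, Bicc1 and Btg2.

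Most mRNAs of differentiated liver function stayed within 2-fold, as did most genes. The brightest, such as Alb (34185 at 0 h) and Ttr (31484), lay close to the highest intensity of the series, where a change may not show. None of 46 plasma protein genes (median 0.16) and none of 17 apolipoprotein and lipid transport genes (0.12) fell or rose. None of 22 genes of fatty acid oxidation (0.19) did. Over all genes 4.44% fell and 3.17% rose, so few would be expected in lists of this size. The median loci of these lists were 15.6, 4.82 and 26.8 kb, against 20.8 kb for all genes kept. Among the 18 fetal liver genes Afp read 33569, 32444 and 33796, close to the highest intensity of the series (35595), where a change may not show, but Mest, an imprinted hydrolase, read 765, 352 and 149, Igf2bp3, an oncofetal RNA-binding protein, 2188, 1584 and 957, and Peg10, an imprinted gene derived from a retrotransposon, 164, 119 and 66.6. The 4 fallen genes of this list (22.2%, against 4.44% of all genes) declined in both phases. Of 33 genes of amino acid, urea and glucose metabolism 23 were below 0 at 12 h and 10 above, with a median of -0.27. Their summed intensity was 64470, 50353 and 47469, of which Igfbp1 alone made up 19954, 9608 and 10961. Of the 33 genes 2 had fallen (6.06%, against 4.44% of all genes). These were the glucose transporter Slc2a2 (1860, 1311 and 780) and Cps1, the entry enzyme of the urea cycle (1471, 973 and 651). Of 29 cytochrome P450 and conjugating enzymes 3 had fallen (10.3%, against 4.44% of all genes). These were Cyp1a1 (3331, 2195 and 844), Cyp1b1 (204, 105 and 84.1) and Cyp7a1, the rate-limiting enzyme of bile acid synthesis (67.7, 27.5 and 25.2).

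Cell cycle mRNAs turned during the course. The 55 G1/S and DNA replication genes had a median of 0.10 from 0 to 6 h and -0.31 from 6 to 12 h, and the 63 G2/M and cytokinesis genes 0.12 and -0.42, against 0.040 and 0.042 for all genes. Over 12 h 4 (7.27%) and 2 (3.17%) of them had fallen, against 4.44% of all genes, and 0 had risen, against 3.17%. Pola1, a DNA polymerase subunit, read 266, 281 and 122 (another probe set gave 0.28), and Cdc6, which licenses replication origins, 408, 366 and 181. Top2a, the topoisomerase of chromosome condensation, read 3085, 2235 and 1346, and Kif11, a spindle motor, 429, 359 and 206. Most of these declines lay after 6 h. Cdk6, a kinase of the G1 phase, declined in both phases (1592, 1011 and 584, locus 190 kb).

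Genes of the basic machinery mostly changed little, with ribosomal, respiratory chain and proteasome genes more often above 0 than below. The 48 cytosolic ribosomal protein genes had a median of 0.06 and the 76 mitochondrial ones 0.20. The 79 respiratory chain and ATP synthase genes had 0.25 and the 39 proteasome subunits 0.16, against 0.076 for all genes. In this order 39, 58, 73 and 31 members were above 0 at 12 h, against 58.8% of all genes. In each list 0 had fallen, against 4.44% of all genes. The risen members of these lists were few, Rpl12 among the cytosolic ribosomal proteins (264, 402 and 743), Cox6b2 and Cox7a1 (161, 249 and 485) in the respiratory chain, and the immunoproteasome subunits named above. The Rpl12 probe set was far dimmer than the median of the cytosolic ribosomal protein genes (19034 at 0 h), and what it measures was not tested. Aminoacyl-tRNA synthetases had a median of -0.20, and 0 of 18 fell or rose. The 288 numbered Zfp zinc finger genes went both ways: 26 had risen (9.03%, against 3.17% of all genes) and 7 had fallen (2.43%, against 4.44%), with a median of 0.25. The fallen Zfp407 and Zfp618 read 300, 49.0 and 42.4, and 353, 75.4 and 73.9, with loci of 382 and 174 kb, and the risen Zfp296 96.2, 238 and 363, with a locus of 3.37 kb.

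**Figure D5:**
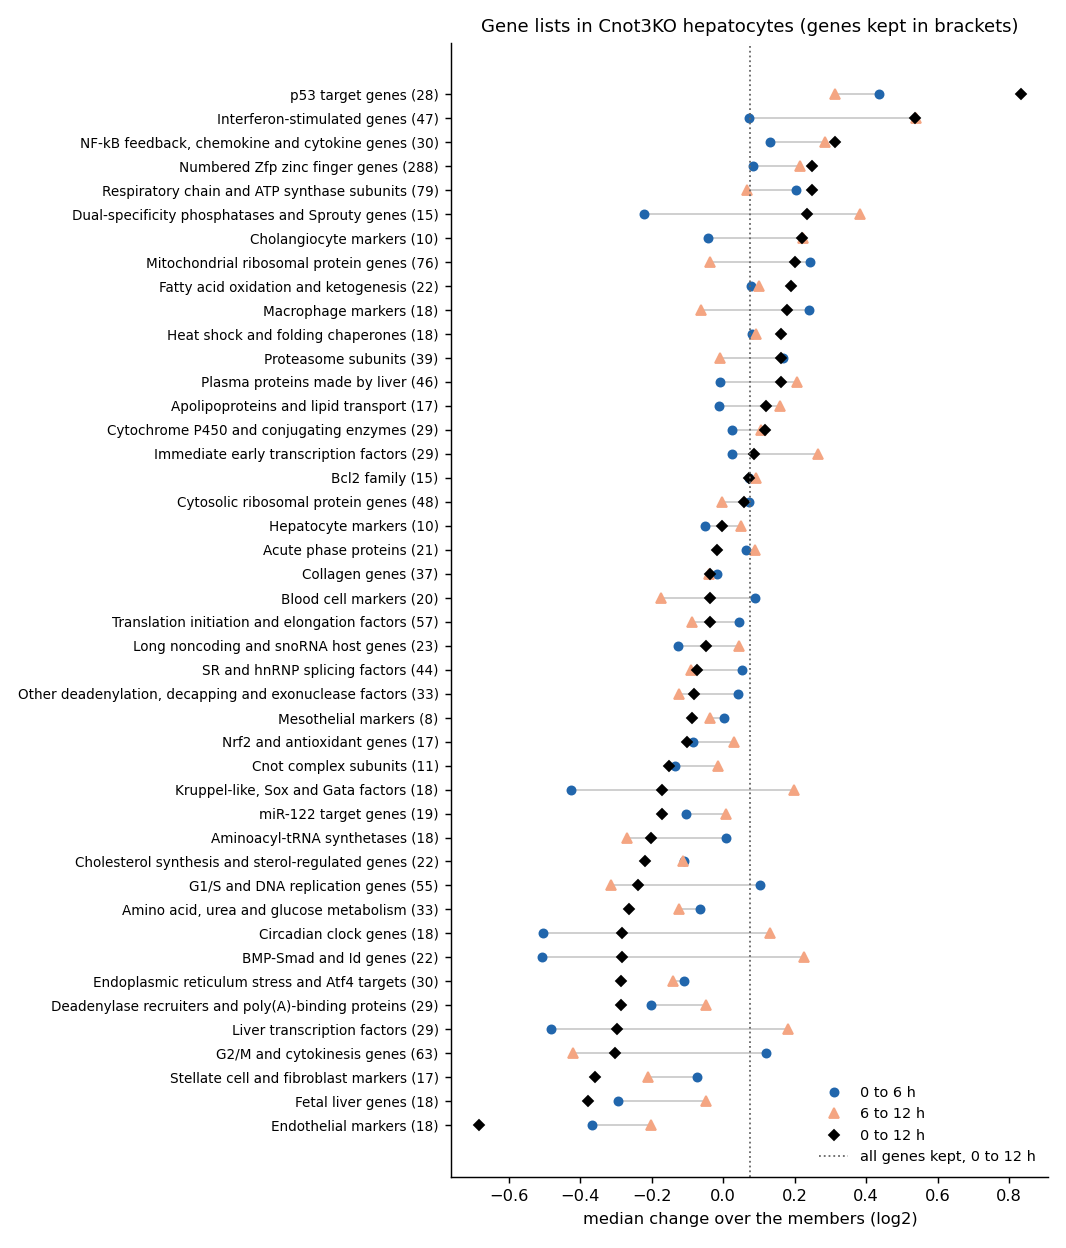
Median change over the members of each gene list in Cnot3KO hepatocytes (log2) from 0 to 6 h (circles), 6 to 12 h (triangles) and 0 to 12 h (diamonds), for lists with at least 8 genes kept, whose number stands in brackets. The dotted line is the 12 h median of all genes kept (0.076); p53 targets lie highest (0.83) and endothelial markers lowest (-0.69).

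Markers of cells other than hepatocytes were among the falls. Of 18 endothelial markers 4 had fallen (22.2%, against 4.44% of all genes) and 0 had risen, with a median of -0.69. The summed intensity of the list declined from 2622 over 1999 to 1562. It was 3572, 3768 and 2303 on the control arrays. Cdh5, the cadherin of endothelial junctions, read 244, 142 and 42.3, Emcn, a sialoglycoprotein of endothelium, 162, 88.5 and 19.3, and Plvap, of endothelial diaphragms, 168, 132 and 75.9. These 3 markers were lower at each later time. Of 17 stellate cell and fibroblast markers 3 had fallen (17.6%), Pdgfrb, Pdgfra and Reln. The sum over all 18 on the array was 35576, 32841 and 29390. Of the 18 macrophage markers 13 were above 0 at 12 h and 5 below, with a median of 0.18. From 6 to 12 h 10 were below 0. Among the 18 macrophage markers 1 had fallen (5.56%), the mannose receptor Mrc1 (385, 320 and 165). The sum of the macrophage markers was 32609, 35966 and 40137, led by Lyz1 (12373, 13489 and 15904) and Lyz2 (6882, 7886 and 9209). Among 20 blood cell markers Mpo had fallen (5%), 11 were below 0 and the median was -0.04. Their sum was 48254, 53966 and 54394, most of it from S100a8 (18990, 21375 and 22860) and S100a9 (17607, 19916 and 21398). Of 10 cholangiocyte markers Pkhd1 had fallen and Epcam had risen (10% each, against 4.44% and 3.17% of all genes). Of 8 mesothelial markers 0 moved over 2-fold. The defining markers Cftr, Lrat and Lrrn4 stayed at or below the 20th percentile on all 3 arrays, while all 18 endothelial markers exceeded it on at least 1. The part of these cells in the falls was not tested.

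Of 31 mRNAs that the study followed, 1 had fallen, Bicc1, and 1 had risen, Irf7. These shares were 3.23% each, against 4.44% and 3.17% of all genes, and the median change was -0.10. Cdt1, a replication licensing factor, read 5386, 4370 and 3762, Brca1, of DNA repair, 550, 311 and 316, and Klf6, a zinc finger factor, 2029, 1462 and 1901. Ect2 and Iqgap1, which act in cytokinesis and the cell cortex, read 1924, 1663 and 1057, and 2782, 2487 and 1717. Aldoa, the glycolytic aldolase, read 11555, 11052 and 11191 and Igf2, the fetal growth factor, 11119, 8806 and 9811. Igfbp1, a secreted binding protein of insulin-like growth factors, read 19954, 9608 and 10961. Apart from Bicc1 none of these was lowered over 2-fold at 12 h, while on the control arrays Ect2, Brca1 and Igfbp1 changed by -2.81, -2.09 and -2.43. Over all 31 mRNAs the control median was -0.13, with 5 fallen and 2 risen. The slope difference between the genotypes passed with limma for 0 genes.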

How the data were processed

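Total RNA was hybridised to Affymetrix GeneChip Mouse Genome 430 2.0 arrays. Probe set summaries were made by the authors with RMA, in a program that no source used here names. The deposited intensities are linear (45037 probe sets), and their log2 was used for every difference. Of the probe sets 34945 named 1 gene in the platform annotation, 932 several and 9160 none; only the first were used for genes. A gene was kept if it exceeded the 20th percentile of an array on at least 1 of the 3 Cnot3KO arrays (16270 genes), or on at least 1 of all 6 arrays for the fit (16499). Locus length came from RefSeq (GRCm38.p6), found for 99.3% of the genes kept.

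Differences between single arrays were counted beyond 2-fold without a test. Slopes over hours were fitted with limma 3.58.1 in R 4.3.3 (genotype, hours and their product, eBayes, Benjamini-Hochberg at 0.05) and tested on simulated data. Named genes were the Cnot subunits, the 15 largest falls and rises, the 8 leading genes of each phase class, up to 4 members of each of 46 lists and mRNAs the study followed, or are said to be named after their values were seen. The members and lists were chosen with earlier results of these data known. Alternatives covered the filter, the probe set per gene, the centring of the arrays, the phase limits and the fit. Genes that share every probe set with other symbols are not named.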

Additional observations from a re-analysis of the deposited data

Results flagged for a closer look

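The genes named here moved over 1.5-fold in opposite directions in Cnot3KO and control hepatocytes by 12 h. The difference of their slopes was tested with limma and did not pass for any of them. Nts, the peptide neurotensin, changed by -1.69 in Cnot3KO and by 0.67 in control cells (limma, adjusted p = 0.179). Peg10, an imprinted gene, changed by -1.30 against 0.82 (limma, adjusted p = 0.179). Reln, the secreted protein reelin, changed by -1.31 against 0.67 (limma, adjusted p = 0.179), and Col14a1, a fibril-associated collagen, by -0.88 against 0.74 (limma, adjusted p = 0.180). In the other direction, Dusp14, a phosphatase of MAP kinases, changed by 0.76 in Cnot3KO and by -1.44 in control cells (limma, adjusted p = 0.179). Cxcl10, an interferon-induced chemokine, read 1172, 1395 and 1819 in Cnot3KO cells, a change of 0.63, against -0.91 in control cells (limma, adjusted p = 0.210).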

How the results depend on the processing

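With the mean of all probe sets of a gene, 396 genes fell by 12 h, 235 by 6 h and 35 from 6 to 12 h, and the phases held 189 early, 187 steady and 20 late genes. Centring on ribosomal protein genes left 79 genes higher at 6 h, moved the median of all genes from 0.076 to -0.023 and made 69.2% of the changed genes fallen ones in place of 58.4% (47.9% with the mean of probe sets). Centring on Gapdh left 53 genes higher from 6 to 12 h and made 69 falls late, and phase limits of 2/3 and 1/3 made 82 late. The slope test called 76 lower and 80 higher without a filter, 0 and 0 with a filter at the 50th percentile (limma, 2498 at an unadjusted p under 0.05), 71 higher with the mean of probe sets, 50 and 51 without probe sets of shared sequence, 117 and 75 centred on ribosomal protein genes, 97 and 72 centred on Gapdh, 101 and 101 with a trend, and 121 and 115 on the 3 Cnot3KO arrays alone. The cause of these shifts was not tested. For the slope difference each setting that included the control arrays called 0 genes (limma, lowest adjusted p from 0.159 to 0.253).

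Among list members and leading genes, another probe set above the 20th percentile had the opposite sign at 12 h for Neat1 (0.31), Jmjd1c (0.26), Cxcl12 (0.13), Bmpr2 (0.15), Bmpr1a (0.40), Rora (0.37), Klf13 (0.36), Nr5a2 (0.26), Foxo1 (0.0074), E2f8 (0.33), Atf4 (0.030) and Eif4g3 (0.20). Among the other genes named, or with dimmer probe sets counted, it did so for Robo1 (1.02), Cd93 (0.43), Pola1 (0.28), Reln (0.21), Msi2 (0.19), Utrn (0.17), Dpyd (0.13), Klf12 (0.12), Arid4b (0.018) and Eri2 (-0.13). Counts by locus length were added as a result after seeing the data; the share of fallen genes of over 100 kb lay between 14.1% and 33.0%, and that of up to 30 kb between 0.551% and 0.877%. No paired analysis was possible because each genotype and time has 1 array and the labels carry no replicate numbers, and for the same reason no replicate could be left out. Of the 723 fallen genes 22 ended at or under the 20th percentile, where a further fall could not show.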

Other observations

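Of the genes kept, 32 fell although their locus is at most 10 kb long. Several are known from endothelium: Cd93 read 608, 408 and 136 and Cldn5, a claudin of tight junctions, 181, 67.4 and 57.8. Others act in metabolism or stress: G0s2, an inhibitor of triglyceride lipase, read 2396, 791 and 723, and Herpud1, of endoplasmic reticulum stress, 9142, 5567 and 4291. Ctsg, the cathepsin of granulocytes, read 581, 657 and 227 and was lost after 6 h, as was Mpo. Irf2bp2, a transcriptional corepressor, read 3810, 1493 and 1880. These genes were chosen after their values were seen.

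Over 2-fold changes in opposite directions in Cnot3KO and control cells were seen for 5 genes, also chosen after their values were seen, and the slope difference passed for 0 of them with limma. Dpyd, of pyrimidine breakdown, read 133, 126 and 50.9 in Cnot3KO and 275, 320 and 563 in control cells. Eri2, an exonuclease, read 201, 326 and 432 in Cnot3KO and 209, 122 and 96.7 in control cells. Nmrk1, Zfp248 and Zfp958 likewise rose in Cnot3KO cells, where the control arrays changed by -1.02, -1.15 and -1.86. Among the 6277 probe sets that name no gene, 3.33% were over 2-fold lower and 1.53% over 2-fold higher at 12 h, against 4.83% and 2.40% of the probe sets that name 1 gene.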
